A study of Mus musculus with 4 samples.

Results

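Transcripts of p53 and 9 of its target genes were examined in mouse embryonic stem cells (ESCs) with and without the chromatin remodeler ATPase SNF2L. The 10 genes were Trp53, Mdm2, Ccng1, Trp53inp1, Zmat3, Phlda3, Sesn2, Bax, Bbc3 and Aen, which were listed by symbol with earlier results of these data known and found by their Entrez identifiers. All 10 were present among the 24594 genes of the count table, and all 10 were among the 13840 genes with enough counts to be tested. Poly(A) RNA had been sequenced from wild-type (WT) cells and from Snf2l knockout cells, with 2 libraries of each genotype and no treatment. Both were ESCs of a 129S6/SvEvTac line, which the study's methods describe as grown on gelatin with serum and leukemia inhibitory factor. The knockout was made by Cas9 editing with puromycin selection, and a single clone was kept for each genotype. Genotype, clone and the history of editing and selection therefore cannot be told apart. The methods call replicates independent and the study's reporting summary calls them biological. Neither says whether they were separate cultures, so p-values measure only the spread between these libraries.

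p53, the product of Trp53, is a transcription factor that is held at a low level by the ubiquitin ligase MDM2 and accumulates when DNA is damaged or cells are stressed. It is regulated mainly through the stability of the protein, and the level of its targets is therefore the usual transcript readout of its activity. The targets include its own inhibitors, genes of cell-cycle arrest, genes of apoptosis and genes of metabolism and repair. ESCs are known to transcribe Trp53 strongly, and Cas9 cutting is known to activate p53 in stem cells.

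p53 binds a pair of copies of a palindromic consensus decamer, and the promoters were read for this motif to show which members carry it close to their start. RefSeq promoter windows of GRCm38.p6, reaching from 250 bases before to 50 bases after an annotated start, were matched for 8 of the 10 genes. Trp53inp1 and Zmat3 were not matched. A perfect decamer was found for 5 of the 8, against 9.55% of 27025 genes with a window. Of 37 other p53 targets with a window, 8 held one. Binding of p53 to these decamers was not measured. Since the decamer is a palindrome, both strands give the same matches. The matches are printed 5′ to 3′ on the strand of the gene, with the decamer in capitals. They lie at chr11:69580259-69580318 (Trp53, plus strand, 75 bases before the start) and chr10:117710910-117710969 (Mdm2, minus strand, 186 bases before). The others are at chr11:40755437-40755496 (Ccng1, minus strand, 185 bases before), chr7:45467065-45467124 (Bax, minus strand, 201 bases before) and chr7:78895927-78895956 (Aen, plus strand, 121 bases before the later of its starts).
Trp53: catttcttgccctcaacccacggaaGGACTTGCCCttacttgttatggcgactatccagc
Mdm2: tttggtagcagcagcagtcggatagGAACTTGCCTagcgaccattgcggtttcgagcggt
Ccng1: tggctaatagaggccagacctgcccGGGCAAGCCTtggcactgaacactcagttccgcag
Bax: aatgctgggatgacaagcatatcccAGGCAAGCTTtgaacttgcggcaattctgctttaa
Aen: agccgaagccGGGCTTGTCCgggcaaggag

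No window of a member held a perfect pair with a spacer of up to 13 bases, which only 24 of 32851 windows (0.0731%) did. Among them was that of Cdkn1a, the gene of the cell-cycle inhibitor p21, shown here as an example of a pair (chr17:29090892-29090951, plus strand, decamers 73 and 51 bases before the start). The bases directly after the second decamer, tgacatgttc, depart from the consensus only in their first base and so were not marked.
Cdkn1a: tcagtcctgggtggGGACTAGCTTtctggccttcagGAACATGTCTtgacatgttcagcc
The windows of Phlda3, Sesn2 and Bbc3 held no perfect decamer. This says only that these letters are not in these windows.

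The libraries held between 13771642 and 15608803 counts. Smarca1, the gene of SNF2L, had 45.5 and 40.8 CPM (counts scaled to library size) in WT, against 2.36 and 2.02 CPM in the knockout, so that the libraries matched their labels. The ESC markers Pou5f1, Sox2 and Nanog had means between 424 and 1319 CPM in each genotype. Of the 10 ESC markers read, Klf4 rose (0.34 on the log2 scale) and Zfp42, on chromosome 8, fell (by 0.60 on the log2 scale), at an adjusted p under 0.05 by edgeR that 9.21% of all genes reached. Of markers of other cells, 4 of 6 tested primitive endoderm genes and 2 of 6 tested fibroblast genes rose, and 4 of 5 neural genes fell. Of those 4, Sox1 and Tubb3 lie on chromosome 8 and were at -0.083 and -0.10 relative to its median. The endoderm genes that rose, Gata4, Gata6, Pdgfra and Dab2, did so by 0.51 to 1.33 on the log2 scale. The summed level of all 7 endoderm markers was 272 to 293 CPM in WT and 304 to 328 CPM in the knockout, most of it from Sparc (268 and 291 CPM), which was not called. That of the 8 fibroblast markers was 12.7 to 15.4 CPM in WT and 28.5 CPM in both knockout libraries. The fibroblast marker Lum had 0 counts in every library and Dcn had at most 2. The part of these markers in the results below was not tested. The median log2 fold change of chromosome 8 was -0.51 and that of 6 genes of chromosome Y was -4.57, and 0 of the 10 members lie on these chromosomes.

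No member passed the test, although all 10 had log2 fold changes above 0. At an adjusted p under 0.05 (quasi-likelihood test of edgeR, adjusted by Benjamini-Hochberg over all 13840 genes), 0 of the 10 genes were called, against 9.21% of all genes. At the threshold of the study, an adjusted p under 0.01 with more than a 2-fold change, 0 members were called, against 0.990% of all genes. Phlda3 and Sesn2 had an unadjusted p under 0.05, both higher in the knockout, against 10.6% of all genes. DESeq2 called 0 members as well. The median log2 fold change of the members was 0.081, which is a difference of 5.75%, and that of all genes was 0.0002. Of all genes, 50.1% had a log2 fold change above 0. Outside chromosomes 8 and Y this share was 52.6% and the median was 0.013. Ccng1, at 0.0031, had a direction that depended on scaling, and with TMM factors computed without chromosomes 8 and Y it was -0.010, which leaves 9 of 10 members above 0. Comparing 2 libraries with 2 by exact permutation cannot give a two-sided p below 0.333, so no such test was used.

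**Figure D1:**
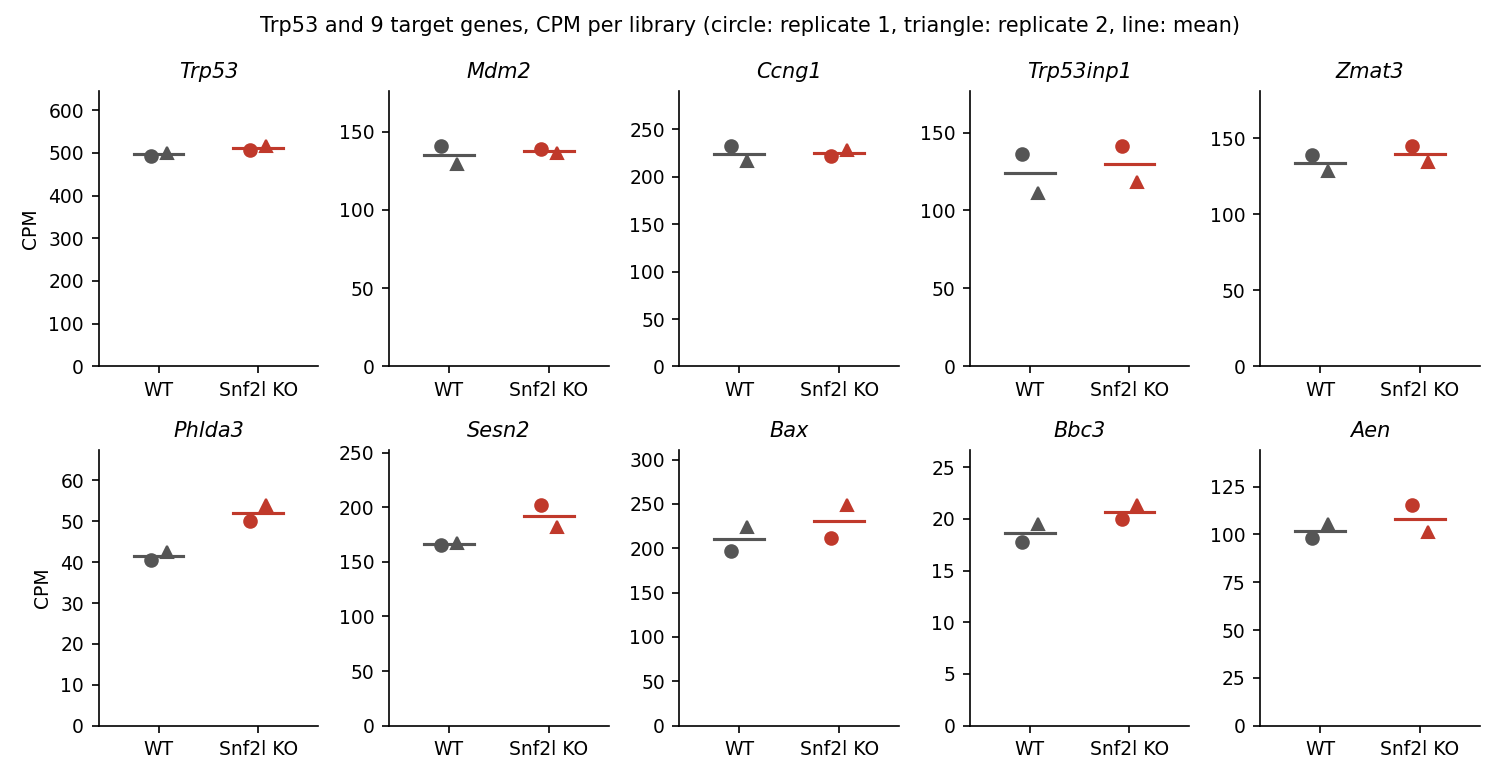
CPM (y axes, from 0) of Trp53 and 9 target genes in the 2 WT and 2 Snf2l knockout libraries (x axes), with circles for replicate 1, triangles for replicate 2 and lines for the mean of 2 libraries. Both knockout libraries lie above both WT libraries for Trp53, Phlda3, Sesn2 and Bbc3, as for 25.2% of all genes, and the genotypes overlap for the other 6 genes. The closest pair was apart by only 0.016 (Trp53) and 0.032 (Bbc3) on the log2 scale.

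Trp53 itself (Entrez gene 22059, chromosome 11, 69580348 to 69591873) was at nearly the same level in all libraries. It stood at 493 and 500 CPM in the WT libraries, against 506 and 517 CPM in those of the knockout. Both knockout libraries thus lay above both WT libraries, but by a few percent. The means were 497 ± 5.36 CPM and 511 ± 7.72 CPM (± SD, n = 2), which is a log2 difference of 0.042 (SE 0.0805, adjusted p = 0.818 by edgeR). The 95% interval of the difference ran from -8.60% to 16.0%. In bulk RNA, a change in the share of expressing cells and a change per cell cannot be told apart. The median of the 1163 tested genes of chromosome 11 was -0.087, and relative to it Trp53 was at 0.13.

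Neither of the negative regulators among the targets passed the test, and both had values near 0. Mdm2 (Entrez gene 17246, chromosome 10, 117688875 to 117710758), which codes for the ligase that degrades p53, stood at 141 and 129 CPM in the WT libraries, against 139 and 136 CPM in those of the knockout. The knockout libraries lay between the WT libraries. The fitted log2 difference was 0.026 (SE 0.0903, adjusted p = 0.907 by edgeR), with an interval from -10.9% to 16.4%. The chromosome 10 median was 0.042, so that Mdm2 was at -0.017 relative to its chromosome. Ccng1 (Entrez gene 12450, chromosome 11, 40748552 to 40755309) codes for cyclin G1, a partner of protein phosphatase 2A that acts on MDM2. It stood at 233 and 216 CPM in the WT libraries, against 222 and 228 CPM in those of the knockout, again with both knockout values inside the WT range. The fitted log2 difference was 0.0031 (SE 0.0872, adjusted p = 0.991 by edgeR), with an interval from -11.9% to 14.04%.

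The genes of apoptosis among the members, Bax, Bbc3 and Aen, were 6.49% to 10.6% higher, with intervals that all included 0. Bax (Entrez gene 12028, chromosome 7, 45461695 to 45466903), whose product forms pores in the mitochondrial outer membrane, stood at 197 and 224 CPM in the WT libraries, against 212 and 249 CPM in those of the knockout. The groups overlapped, and in each genotype the second library was the higher. The fitted log2 difference was 0.13 (SE 0.101, adjusted p = 0.517 by edgeR). It was 0.0052 without knockout replicate 2 and 0.038 without WT replicate 1, but 0.22 without WT replicate 2 and 0.24 without knockout replicate 1. Of its 1576 exonic bases, 192 (12.2%) are shared with Gm45808 on the same strand in GENCODE M21, so reads there may belong to either gene, whereas the other 9 members share no exonic base with another gene. Bbc3 (Entrez gene 170770, chromosome 7, 16308398 to 16318334) codes for PUMA, a BH3-only activator of BAX. It stood at 17.8 and 19.5 CPM in the WT libraries, against 19.9 and 21.3 CPM in those of the knockout. The knockout libraries lay above the WT libraries, but the closest pair was apart by only 0.032 on the log2 scale. The fitted log2 difference was 0.15 (SE 0.122, adjusted p = 0.539 by edgeR). Aen (Entrez gene 68048, chromosome 7, 78895927 to 78911209), an apoptosis-enhancing nuclease, stood at 98.1 and 105 CPM in the WT libraries, against 115 and 101 CPM in those of the knockout. One knockout library lay above both WT libraries and the other between them, with a log2 difference of 0.091 (SE 0.0980, adjusted p = 0.655 by edgeR).

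For Trp53inp1 and Zmat3, replicates of a genotype differed by more than the genotypes did, which was also so for Mdm2, Ccng1, Bax and Aen. Trp53inp1 (Entrez gene 60599, chromosome 4, 11156441 to 11174379) codes for a stress-induced nuclear protein with a role in autophagy. It stood at 136 and 112 CPM in the WT libraries, against 142 and 118 CPM in those of the knockout. The replicates of a genotype differed by 0.29 (WT) and 0.26 (knockout) on the log2 scale, beside the genotypes, whose log2 fold change was 0.071 (SE 0.113, adjusted p = 0.776 by edgeR). Zmat3 (Entrez gene 22401, chromosome 3, 32334792 to 32365665) codes for an RNA-binding zinc-finger protein. It stood at 139 and 128 CPM in the WT libraries, against 145 and 135 CPM in those of the knockout, with overlapping groups. The fitted log2 difference was 0.064 (SE 0.0922, adjusted p = 0.750 by edgeR).

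Phlda3 and Sesn2 had the largest differences. Phlda3 (Entrez gene 27280, chromosome 1, 135766085 to 135769134) codes for a pleckstrin-homology protein that inhibits AKT at the membrane. It stood at 40.6 and 42.4 CPM in the WT libraries, against 50.0 and 54.0 CPM in those of the knockout, so that the groups did not overlap. The means were 41.5 ± 1.31 CPM and 52.0 ± 2.81 CPM (± SD, n = 2). This is a log2 difference of 0.33 (SE 0.101, adjusted p = 0.0587 by edgeR), or 25.4% with an interval from 7.92% to 45.6%. The adjusted p lay just above the threshold, and its side depended on the scaling, on single libraries and on a replicate block, which is described at the end. With DESeq2 the adjusted p was 0.167, and with edgeR and the filter of at least 1 count it was 0.0990. It was 0.0422 with upper-quartile scaling, 0.0462 with library size only and 0.0200 without knockout replicate 1, but 0.407 without WT replicate 1, 0.210 without WT replicate 2 and 0.184 without knockout replicate 2. Genes of chromosome 1 had a median of 0.090, and Phlda3 was at 0.24 relative to them.

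Sesn2 (Entrez gene 230784, chromosome 4, 132492804 to 132510456) codes for a sestrin, which senses leucine and restrains mTORC1. It stood at 165 and 167 CPM in the WT libraries, against 202 and 182 CPM in those of the knockout. Both knockout libraries lay above both WT libraries, and they differed from each other by 0.15 on the log2 scale. The means were 166 ± 1.56 CPM and 192 ± 14.03 CPM (± SD, n = 2), which is a log2 difference of 0.21 (SE 0.0902, adjusted p = 0.184 by edgeR). The interval ran from 1.19% to 32.2%. Leaving out knockout replicate 1 moved the log2 fold change to 0.14 and leaving out knockout replicate 2 moved it to 0.28.

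**Figure D2:**
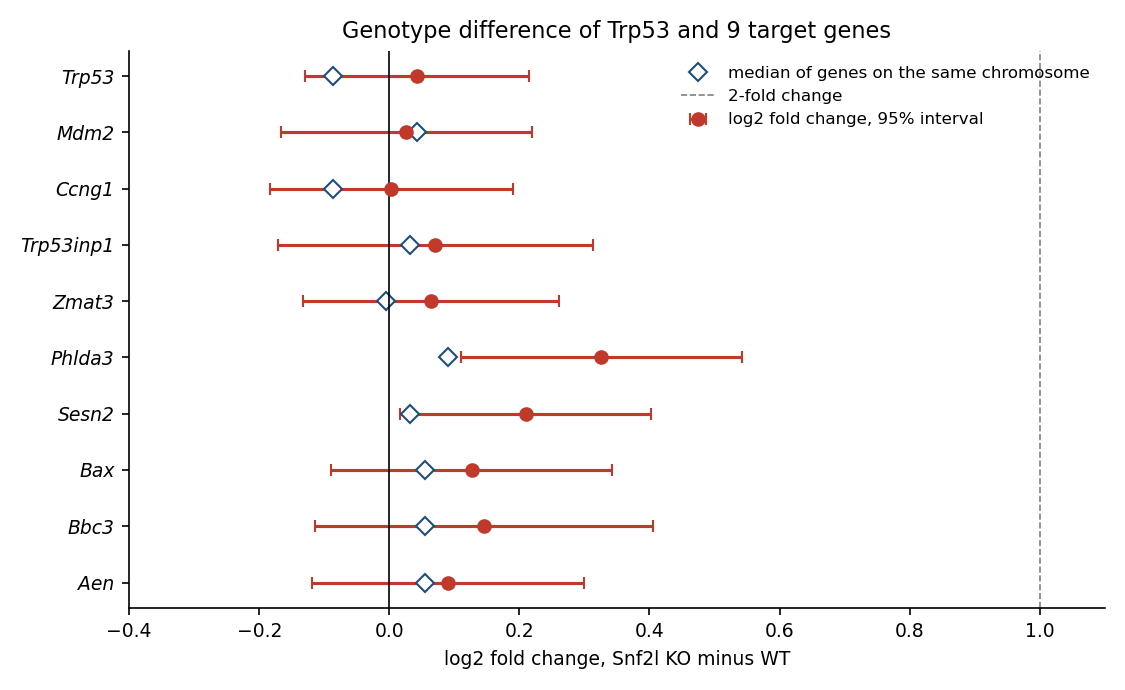
Log2 fold change of the knockout against WT (x axis) with its 95% interval for each member (y axis), beside the median of the genes on the same chromosome (diamonds) and a 2-fold change (dashed line). The intervals of Phlda3 and Sesn2 lie above 0 before adjustment, those of the other 8 members include 0, and the highest upper bound is 0.54.

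The intervals, taken per gene and not adjusted, bound only the difference between the libraries of this single knockout clone and those of WT. The highest upper bound over the 10 members, that of Phlda3, was 0.54 on the log2 scale, so that each interval ended below a 2-fold change. For the 8 members other than Phlda3 and Sesn2, the log2 fold changes ran from 0.0031 to 0.15 and the adjusted p from 0.517 to 0.991 (edgeR).

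Consistency was then examined across the 4 pairings of a knockout with a WT library. Trp53, Phlda3, Sesn2 and Bbc3 were higher in the knockout in 4 of 4 pairs. These 4 of 10 genes compare with 25.2% of all genes in which both knockout libraries lay above both WT libraries, and with 26.5% outside chromosomes 8 and Y. Trp53inp1, Zmat3, Bax and Aen were higher in 3 of 4 pairs, and Mdm2 and Ccng1 in 2 of 4. The lowest difference of Phlda3 over the pairs was 0.24 and that of Sesn2 was 0.12, against 0.016 for Trp53. No member lay below both WT libraries in both knockout libraries, a count for which the share of all genes was not computed.

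**Figure D3:**
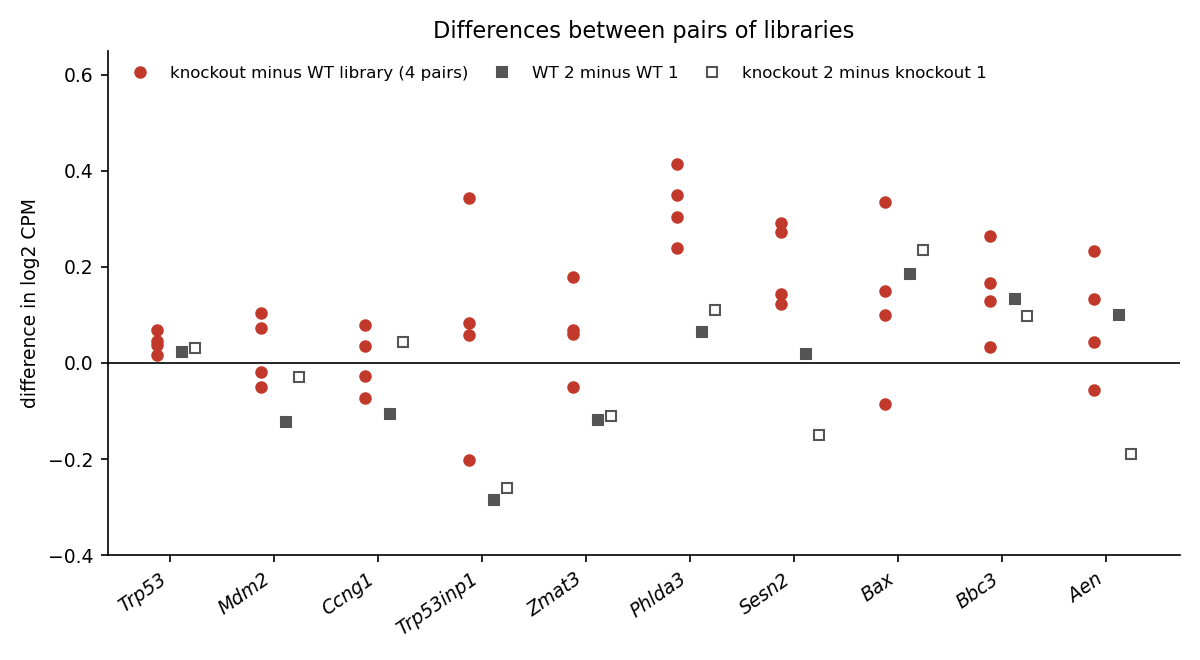
Difference in log2 CPM (y axis) for each member (x axis) in the 4 pairs of a knockout and a WT library (red circles) and between the 2 libraries of a genotype (squares, filled for WT, open for the knockout). For Phlda3 the 4 pairs lie between 0.24 and 0.41, above both replicate differences (0.065 and 0.11), while for Trp53inp1 they span -0.20 to 0.34.

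Per length, the members spanned a wide range of levels, and their order was the same in both genotypes. In WT, Bax stood at 134 ± 12.1 CPM per kb and Trp53 at 123 ± 1.32 CPM per kb (SD, n = 2), which do not differ beyond the spread of Bax. The levels of 97.9% and 97.6% of the tested genes were lower. Ccng1 (63.9 ± 3.35) and Sesn2 (47.8 ± 0.449) followed in CPM per kb. Phlda3 and Mdm2 were both at 26.6 CPM per kb in WT, with SDs of 0.843 and 1.604, whereas in the knockout Phlda3 stood at 33.4 ± 1.80 and Mdm2 at 27.1 ± 0.401. Trp53inp1 (19.1 ± 2.67), Aen (17.5 ± 0.865) and Zmat3 (16.5 ± 0.963) overlapped within their SDs in WT. Bbc3 was the lowest member at 8.78 ± 0.576 CPM per kb, with 59.3% of the tested genes below it.

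To set the members among the rest of the pathway, 80 other genes were grouped by role, of which 77 had enough counts to be tested. Of the 77, 1 rose and 4 fell at an adjusted p under 0.05 (edgeR), while of all genes 553 rose and 721 fell (9.21% together), and 0 passed the threshold of the study. Their median log2 fold change was 0.0063. Of the 4 that fell, Usp10 and Mcm5 lie on chromosome 8. Values above 0 were found for 41 of the 77.

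Genes acting on p53 included kinases, ligases and cofactors, and 13 of the 17 tested had values below 0, with a median of -0.096. This count was 12 or 13 under every other scaling but between 8 and 16 when a library was left out (8 without knockout replicate 2 and 16 without knockout replicate 1). Usp10, a deubiquitinase that stabilizes p53, was the only one to pass the test. It fell from 427 ± 2.13 to 268 ± 12.7 CPM (mean ± SD, n = 2), which is a log2 difference of -0.67 (SE 0.0845, adjusted p = 0.0002 by edgeR), where the chromosome 8 median was -0.51. Mdm4, the MDM2 homologue that inhibits p53, was at -0.067 (adjusted p = 0.772 by edgeR). Ppm1d, a phosphatase that is itself a p53 target and switches p53 off, had 46.0 ± 5.66 CPM in WT, against 36.3 ± 2.95 CPM without SNF2L (mean ± SD, n = 2), at -0.34 (adjusted p = 0.0834 by edgeR). The highest value was that of Cop1, a ubiquitin ligase of p53, at 0.089 (adjusted p = 0.653 by edgeR). Of the relatives of p53, Trp63 had 0 counts in every library and Trp73 was at 0.0095 (adjusted p = 0.986 by edgeR).

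Of the 8 other targets with a role in cell-cycle arrest, 7 had values above 0, with a median of 0.17, and Gadd45a rose. Gadd45a, a stress sensor that binds PCNA and CDK1, went from 61.9 ± 3.81 to 78.9 ± 6.30 CPM (mean ± SD, n = 2), which is a log2 difference of 0.35 (SE 0.0996, adjusted p = 0.0398 by edgeR). This call was lost with DESeq2 (adjusted p = 0.0889), with the filter of at least 1 count (0.0776), and without WT replicate 1 (0.396), WT replicate 2 (0.105) or knockout replicate 2 (0.161). Cdkn1a, the best known target, was not called. It had 33.9 ± 2.39 CPM in WT, against 35.7 ± 0.113 CPM without SNF2L (mean ± SD, n = 2), at 0.072 (SE 0.106, adjusted p = 0.757 by edgeR). Rprm, the gene of Reprimo, had the highest value, 0.84 (adjusted p = 0.134 by edgeR), but only 13 to 29 counts. Sfn, which codes for 14-3-3 sigma, had the lowest, -0.071 (adjusted p = 0.788 by edgeR).

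**Figure D4:**
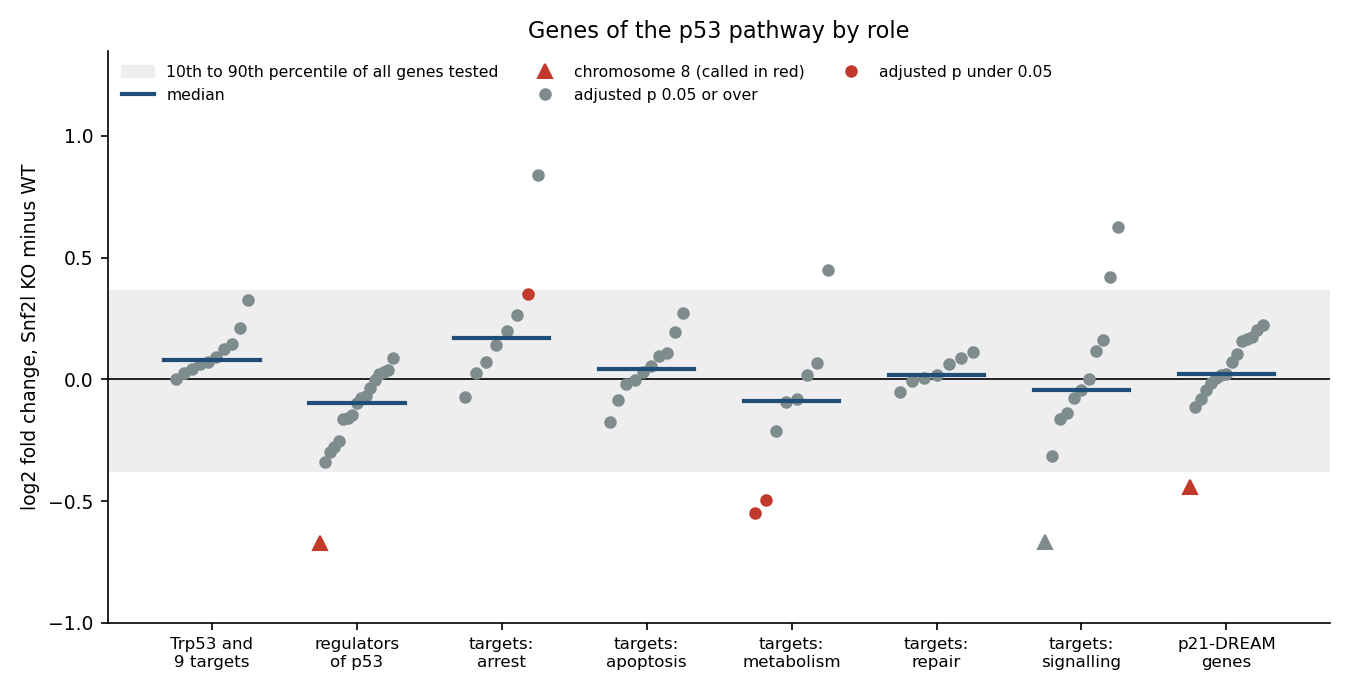
Log2 fold change of the knockout against WT (y axis) for the members and 7 lists of other p53 pathway genes (x axis), each point a gene, with red for an adjusted p under 0.05, triangles for chromosome 8, blue lines for list medians and a grey band from the 10th to the 90th percentile of all tested genes (-0.37 to 0.36). The members and most targets lie inside the band, and list medians range from -0.096 for the regulators to 0.17 for the arrest genes.

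Among 10 tested targets of the apoptosis list, 6 had values above 0 (median 0.044) and 0 were called. The highest was Pmaip1, the gene of the BH3-only protein NOXA, with 79.4 ± 1.71 CPM in WT, against 96.0 ± 4.41 CPM without SNF2L (mean ± SD, n = 2). It was at 0.27 (SE 0.0927, adjusted p = 0.0843 by edgeR). The lowest was Pidd1, which codes for a death-domain protein of the PIDDosome, at -0.18 (adjusted p = 0.356 by edgeR). Fas had at most 10 counts in a library and was not tested.

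Of 8 targets with roles in metabolism, 3 had values above 0 and 2 fell. Pank1, a pantothenate kinase of coenzyme A synthesis, fell from 20.9 ± 0.645 to 14.3 ± 0.519 CPM (mean ± SD, n = 2), which is a log2 difference of -0.55 (SE 0.123, adjusted p = 0.0105 by edgeR). Gls2, a mitochondrial glutaminase, fell from 29.5 ± 0.853 to 20.9 ± 0.125 CPM (mean ± SD, n = 2), at -0.49 (SE 0.112, adjusted p = 0.0106 by edgeR). Of all genes, 9.21% were called in either direction. Pank1 and Gls2 were lower in the knockout in every pairing with a WT library. This also held for uncalled genes, with 5 of the 8 genes of this list showing it, and 18 of all 77 pathway genes tested. The share of all genes with this pattern was not computed. Both genes missed the threshold only without WT replicate 2. The highest value of this list, 0.45 for Dram1, rested on 2 to 15 counts per library (adjusted p = 0.733 by edgeR).

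The 7 targets with roles in DNA repair and nucleotide supply had a median of 0.018, with 0 called. Their values ran from -0.050 for Pcna, the replication clamp (adjusted p = 0.795 by edgeR), to 0.11 for Polh, a translesion polymerase (adjusted p = 0.658 by edgeR). Ddb2, which recognizes ultraviolet damage, was at 0.018 (adjusted p = 0.962 by edgeR). The remaining 11 tested targets had a median of -0.043 and 0 were called. They ran from Gdf15, a secreted stress cytokine on chromosome 8, at -0.67 (adjusted p = 0.0996 by edgeR), to Dcxr, a xylulose reductase, at 0.63 (adjusted p = 0.0575 by edgeR). Relative to the median of its chromosome, Gdf15 was at -0.16. Dcxr passed the threshold with library size only, with the replicate number as a block and without knockout replicate 1.

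Genes that p53 represses through p21 and the DREAM complex were read last. Of 15 such cell-cycle genes, 10 had values above 0, with a median of 0.024. Only Mcm5, a subunit of the replicative helicase on chromosome 8, was called. It went from 915 ± 28.0 to 674 ± 3.27 CPM (mean ± SD, n = 2), at -0.44 (SE 0.0790, adjusted p = 2.27e-03 by edgeR). The chromosome 8 median was -0.51, and relative to it Mcm5 was at 0.065. The highest value was 0.22 for Cdc25c, a mitotic phosphatase (adjusted p = 0.232 by edgeR).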

How the data were processed

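The authors aligned poly(A) RNA-seq reads to mm10 with QuasR (spliced alignment by HISAT2) and deposited whole-number counts per Entrez gene over UCSC Known Genes, not normalized, with a length for each gene. Base calls were made with bcl2fastq 2.17, per the labels. The labels name a stranded kit and the methods an unstranded one, and the use of strand in counting is not given in the sources used here. Symbols and positions came from RefSeq GRCm38.p6, the assembly of mm10 (24570 of 24594 genes matched).

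Tests on the counts used edgeR 4.0.16 under R 4.3.3: filterByExpr (minimum count 10), TMM scaling, glmQLFit and glmQLFTest in their legacy form, genotype as the only term, two-sided tests, and adjustment over 13840 genes. SEs and 95% intervals were derived from the F statistic. CPM used TMM-scaled library sizes. The procedure was tested on counts simulated with the same dispersion for every gene and without replicate or chromosome effects. These settings are simpler than the data. Replicates differed by more than sampling noise (chi-square per degree of freedom 5.48 and 7.83). Alternatives were 4 scalings, 2 filters, DESeq2 1.42.0, 2 other edgeR fits, the replicate number as a block, and each library left out.

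The members, lists and tests were chosen with earlier results of these data known, so lists are described by counts and medians without a test. Genes named are the members, Smarca1, Cdkn1a, Mdm4, Ppm1d, Ddb2 and, in each pathway list, the called genes and those with the highest and lowest value. Markers are named in addition, and Trp63 and Fas as untested genes.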

Additional observations from a re-analysis of the deposited data

How the results depend on the processing

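Under the other scalings, filters and edgeR fits except the block, and under DESeq2, 0 members had an adjusted p under 0.05, except for Phlda3 as 1 called member with upper-quartile scaling and with library size only. Leaving out a library gave 0 to 1 called members. The median log2 fold change of the members was 0.081 and became 0.11 with upper-quartile scaling, 0.098 with library size only and 0.067 with TMM factors computed without chromosomes 8 and Y. These shifts follow that of all genes, since the members' median stayed 0.080 to 0.081 above the median of all genes under each scaling. With a library left out it lay between 0.043 and 0.11, and between 7 and 10 members had values above 0. Of 140 values of members under the other settings, each taken alone,, 7 changed direction. Ccng1 became -0.010 with TMM factors computed without chromosomes 8 and Y, -0.051 without WT replicate 2 and -0.019 without knockout replicate 2. Mdm2 became -0.036 and Trp53inp1 -0.068 without WT replicate 2, and Trp53inp1 -0.064 and Aen -0.0056 without knockout replicate 1. With a library left out, these genes ranged from -0.036 to 0.089 (Mdm2), -0.051 to 0.058 (Ccng1), -0.068 to 0.22 (Trp53inp1) and -0.0056 to 0.18 (Aen). The other 6 members kept their direction with a library left out, from 0.027 to 0.0595 for Trp53, 0.0043 (without WT replicate 2) to 0.13 (without WT replicate 1) for Zmat3, 0.0052 to 0.24 for Bax, 0.082 (without WT replicate 1) to 0.21 (without WT replicate 2) for Bbc3, 0.27 to 0.38 for Phlda3 and 0.14 to 0.28 for Sesn2. Relative to the chromosome median, an alternative chosen after seeing the data, Mdm2 was at -0.017. The cause of these changes was not tested.

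The labels give both genotypes the replicate numbers 1 and 2 but do not say that a number marks anything shared, and the correlation over genes between their deviations from the genotype means was 0.196. With the replicate number as a block, 2 members were called, Phlda3 (0.33, adjusted p = 1.10e-04) and Sesn2 (0.21, adjusted p = 4.59e-03), and 19 of the other pathway genes against 5 without the block. The blocked fit has 1 residual degree of freedom. With a library left out, between 1 and 12 of these pathway genes were called.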

Other observations

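Sesn2 and Pmaip1 are known to respond to the transcription factor ATF4 as well as to p53, and genes of this integrated stress response were read beside them. The 16 genes were listed after the values of the members had been seen. Of these, 7 rose at an adjusted p under 0.05 (edgeR), and 0 fell, while of all genes 553 rose and 721 fell (9.21% together). Atf4 itself rose from 332 to 464 CPM (log2 fold change 0.48, SE 0.0945, adjusted p = 4.36e-03 by edgeR). Asns, which codes for asparagine synthetase, rose by 0.42 on the log2 scale (adjusted p = 4.94e-03 by edgeR), and Trib3, a pseudokinase induced by ATF4, by 0.39 (adjusted p = 0.0202 by edgeR). Ddit4, an inhibitor of mTORC1, rose by 0.77 (adjusted p = 4.06e-04 by edgeR). The other genes that rose were Chac1, Stc2 and Nupr1. Psat1, Phgdh, Shmt2 and Ddit3 were not called, with values between 0.13 and 0.26, and Ppp1r15a, Atf3, Mthfd2, Slc7a11 and Slc3a2 ran from 0.085 down to -0.060. The number called was 6 or 7 under the other scalings, 6 with DESeq2 and 3 without WT replicate 1, the lowest when a library was left out. No test of this list was run, and whether ATF4 had a part in the values of Sesn2 and Pmaip1 was not tested.

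Paralogs of the p53 targets were read in a list of 8 that was also chosen after seeing values, of which 4 rose and 1 fell, against 9.21% of all genes called in either direction. Gadd45g rose from 4.002 to 10.4 CPM (log2 fold change 1.37, SE 0.173, adjusted p = 2.06e-04 by edgeR), and Ccng2, the paralog of Ccng1, from 5.64 to 9.50 CPM (0.75, SE 0.158, adjusted p = 6.65e-03 by edgeR). Sesn3 was at 0.37 (adjusted p = 0.0356 by edgeR), beside 0.21 for Sesn2. Among genes of the Phlda family, the imprinted gene Phlda2 fell by 1.68 on the log2 scale while Phlda1 rose by 0.80. Of 11 tested genes of the BCL2 family beside Bax and Bbc3, only Hrk, a BH3-only gene, was called, a share close to that of all genes, at 0.69 (SE 0.167, adjusted p = 0.0160 by edgeR).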
